A study of Rattus norvegicus with 12 samples.

Results

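The mitochondrially encoded subunits of respiratory complex I were followed across the hearts of 3 groups of ZSF1 rats. They were chosen by name, as the rows of the deposited expression table whose gene name starts with Mt-nd, which gave 7 genes of the 17602 listed. These are Mt-nd1, Mt-nd2, Mt-nd3, Mt-nd4, Mt-nd4l, Mt-nd5 and Mt-nd6, and all 7 had a number in each of the 12 libraries and passed the filter on low values. The label fits the rows, since these are the 7 complex I genes of the mammalian mitochondrial genome. Their names in the table are paired with Ensembl gene identifiers, and no coordinates, length values or sequences are given here; the gene order, strands and overlaps named below are background knowledge of the mammalian mitochondrial genome.

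The study asked whether raising NAD+ alters diastolic dysfunction, with the rats as a model of heart failure with preserved ejection fraction. The 3 groups were 4 samples of obese ZSF1 rats given nicotinamide (NAM, a form of vitamin B3 from which cells make NAD+), 4 of untreated obese ZSF1 rats and 4 of lean ZSF1 rats, which served as non-failing controls. The obese+NAM rats drank water with 24 mM NAM, starting at week 8 and ending at week 20. All 12 samples are labelled as cardiac muscle of the ZSF1 strain. The treatment labels call both obese groups diet-induced, while the design text describes the ZSF1 obese rat as a model of hypertension, obesity and metabolic syndrome. ZSF1 obese rats are known to carry defective leptin receptor alleles, an inherited cause of obesity. The labels give no age or sex for the untreated groups, no batch, and no statement that each sample is a separate animal. If samples share an animal, the p-values below measure a spread that is partly technical, and a batch that follows the groups could not be separated from the treatment.

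Complex I is the NADH dehydrogenase of the inner mitochondrial membrane. It takes electrons from NADH, passes them to ubiquinone and pumps protons, and the heart depends on it for most of its oxidative ATP production. The 7 mitochondrially encoded subunits form the core of its membrane arm, while all other subunits are encoded in the nucleus and imported. Mitochondrial DNA is transcribed as long polycistronic RNAs from each strand, from which the mRNAs are released largely by excision of the tRNAs between them. Of these 7 mRNAs, Mt-nd6 alone is encoded on the opposite, light-strand side, and Mt-nd4l and Mt-nd4 stay together on 1 bicistronic mRNA with overlapping reading frames.

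Expression was deposited as TPM, a length-corrected share of all transcripts that sums to the same total in each library, so the depth of sequencing is unknown and precision rests on the 4 samples of each group. The 13 mitochondrially encoded mRNAs took 71.3 ± 1.69% of the TPM total in obese+NAM hearts, 75.1 ± 0.376% in obese hearts and 69.1 ± 1.97% in lean hearts (SD, n = 4 each). Lean replicate 1 was the lowest of the 12 libraries, at 66.2%. Between 14759 and 15120 genes were above 0 TPM in each library. TPM are shares of a total, so the values of a library are not independent of each other. Over the 10526 genes that reached 1 TPM in 4 or more libraries, the median log2 change was -0.20 for obese against lean, 0.25 for obese+NAM against obese and 0.05 for obese+NAM against lean. Values rescaled to remove that shift, by the median of each library's ratios to the geometric mean over genes, are therefore given beside the deposited scale. Each group enters 2 of the 3 comparisons, so no comparison is independent of the others.

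The summed share of the 7 complex I mRNAs was 20.6 ± 0.964% of TPM in obese+NAM hearts, 22.0 ± 1.20% in obese hearts and 17.1 ± 1.29% in lean hearts. By library the share was 21.2, 21.2, 19.2 and 20.7% in obese+NAM hearts, 22.6, 23.4, 20.7 and 21.3% in obese hearts and 15.3, 17.4, 18.2 and 17.7% in lean hearts. Obese hearts lay above lean hearts without overlap, and obese+NAM hearts also lay above lean hearts while overlapping with untreated obese hearts.

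The order of the 7 mRNAs was nearly the same in every group, at levels set on the TPM scale, which is per length. Mt-nd4l was the highest and Mt-nd5 the lowest in all 3 groups, and the mean of Mt-nd4l was 6.18 times that of Mt-nd5 in obese+NAM hearts, 7.38 times in obese hearts and 6.92 times in lean hearts. Mt-nd2 came next below Mt-nd4l and Mt-nd6 next above Mt-nd5, and each of these steps was larger than the spread, with no overlap of libraries. Mt-nd1, Mt-nd3 and Mt-nd4 filled the middle. Mt-nd4 and Mt-nd3 overlapped in obese+NAM hearts and in obese hearts, and Mt-nd2 overlapped with its lower neighbour there as well. In lean hearts Mt-nd3 overlapped with Mt-nd1, and Mt-nd1 with Mt-nd4, the fifth of the 7 there. Among all genes of a library, Mt-nd4l ranked 5 and Mt-nd6 ranked 12 in all 12 libraries, Mt-nd2 ranked between 6 and 10, Mt-nd4 between 8 and 11, and Mt-nd5 between 13 and 19.

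**Figure D1:**
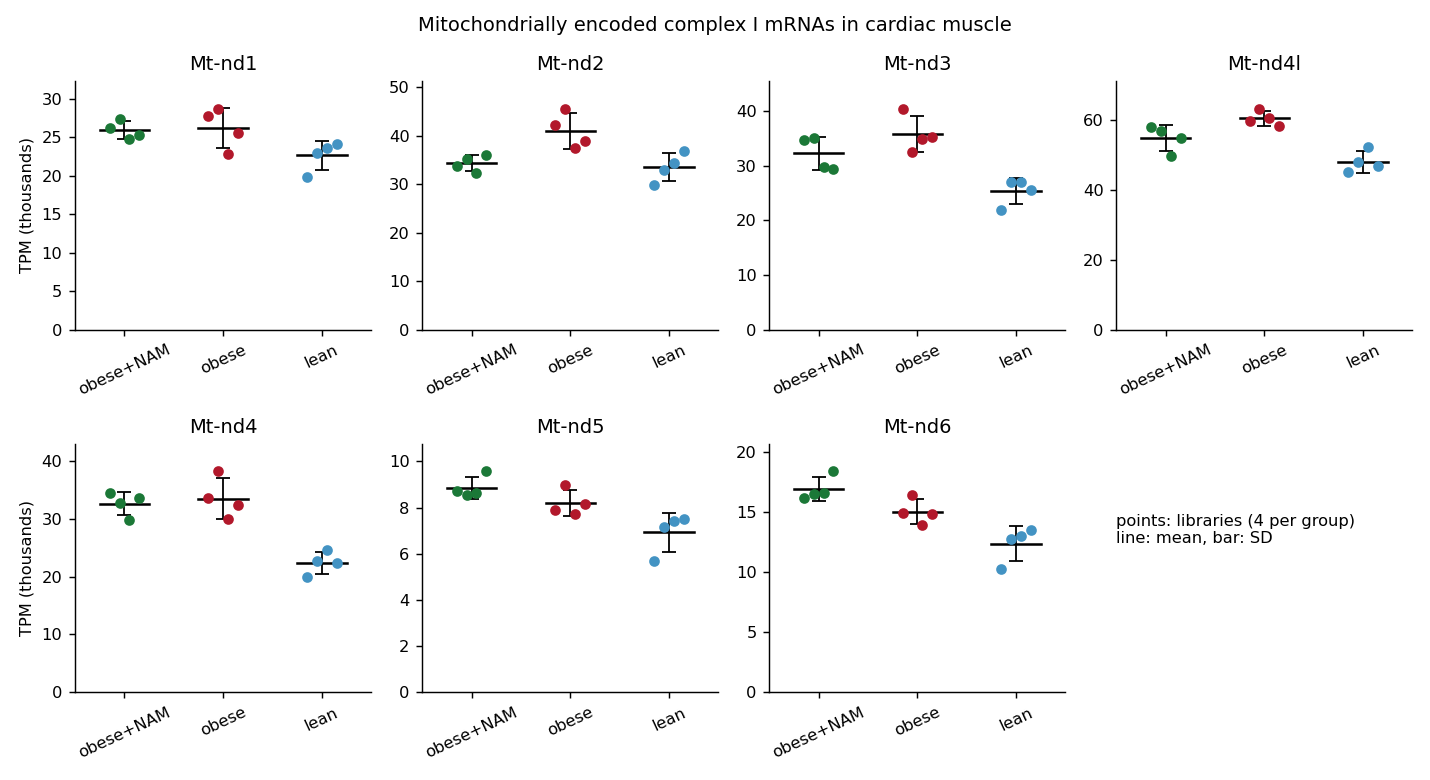
TPM (in units of 1000, axes starting at 0) of the 7 mitochondrially encoded complex I mRNAs in obese+NAM, obese and lean hearts, with a point per library, the mean as a line and the SD as a bar (n = 4 each). For Mt-nd4 all obese+NAM and obese libraries stand above the lean ones, and for Mt-nd2 the obese libraries stand above both other groups.

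Among the subunits at the base of the membrane arm, Mt-nd1 encodes the subunit that lines the ubiquinone site with the nuclear-encoded peripheral arm. Its level was 26237, 27435, 24838 and 25334 TPM in obese+NAM hearts, 27748, 28718, 22873 and 25559 TPM in obese hearts and 19892, 22953, 23609 and 24127 TPM in lean hearts. Obese hearts overlapped with both other groups, and the 4 obese+NAM hearts lay above the 4 lean hearts. Mt-nd3 encodes a small subunit with a flexible loop near the same junction. Its level was 34751, 35065, 29884 and 29516 TPM in obese+NAM hearts, 40492, 32594, 34859 and 35364 TPM in obese hearts and 21968, 27106, 27063 and 25587 TPM in lean hearts. The 4 obese and the 4 obese+NAM hearts lay above all lean hearts, and they overlapped with each other. Mt-nd6, the light-strand gene, encodes a subunit that sits in the proton path between that junction and the pumping subunits. Its level was 16143, 16527, 16632 and 18403 TPM in obese+NAM hearts, 14944, 16448, 13959 and 14886 TPM in obese hearts and 10268, 12807, 13006 and 13478 TPM in lean hearts. Obese and obese+NAM hearts again lay above lean hearts, lean replicate 1 was the lowest library, and only obese replicate 2 reached into the obese+NAM range. Mt-nd4l encodes the small subunit next to that of Mt-nd6 in the same path. Its level was 58095, 56709.9, 49658 and 54693 TPM in obese+NAM hearts, 59564, 63221, 60676 and 58188 TPM in obese hearts and 45018, 47884, 52267 and 46680.5 TPM in lean hearts. Obese hearts lay above both other groups without overlap, while obese+NAM and lean hearts overlapped.

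The remaining 3 mRNAs encode the antiporter-like subunits that make up the pumping part of the membrane arm. Mt-nd2, the innermost of these, had 33648, 35208, 32251 and 35921 TPM in obese+NAM hearts, 42094, 45549, 37355 and 38829 TPM in obese hearts and 29848, 32953, 34264 and 36869.9 TPM in lean hearts. Obese hearts lay above both other groups without overlap, and obese+NAM hearts overlapped with lean hearts. Mt-nd4, the middle one, had 34385, 32658, 29802 and 33633 TPM in obese+NAM hearts, 33548, 38179.9, 29931 and 32284 TPM in obese hearts and 19927, 22677, 24533 and 22355 TPM in lean hearts. All 8 obese and obese+NAM hearts lay above the 4 lean hearts, and the obese and obese+NAM ranges overlapped. Mt-nd5, the outermost one, had 8742, 8532, 8632 and 9572 TPM in obese+NAM hearts, 7901, 8987, 7707 and 8156 TPM in obese hearts and 5691, 7141, 7416 and 7490.3 TPM in lean hearts. Obese and obese+NAM hearts lay above lean hearts, with the highest value in obese+NAM replicate 4 and the lowest in lean replicate 1.

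In obese hearts most complex I mRNAs of the mitochondrion stood above their level in lean hearts, Mt-nd4 and Mt-nd3 by the widest margins. Of the 7, 5 rose past an adjusted p of 0.05 in limma's moderated test over all kept genes, and none fell. Among all kept genes 0.352% were called higher and 16.5% lower in this comparison. Libraries did not overlap for 6 of the 7, all but Mt-nd1, against 0.627% of kept genes that stood wholly above lean. The median log2 change was 0.29 over the 7 and -0.20 over all kept genes.

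The fitted changes ran from 0.21 for Mt-nd1 to 0.58 for Mt-nd4, and the differences among them were not tested. Mt-nd4 rose by 0.58 on the log2 scale (SE 0.08, limma adjusted p = 0.00174), a mean of 33486 ± 3469.9 TPM in obese hearts against 22373 ± 1892 TPM in lean hearts. Mt-nd3 rose by 0.50 (SE 0.09, adjusted p = 0.00416) and Mt-nd4l by 0.33 (SE 0.06, adjusted p = 0.00443). These 3 calls held with any 1 of the 12 libraries left out. Mt-nd2 and Mt-nd6 each rose by 0.29 (SE 0.08 each, adjusted p = 0.0203 and 0.0345). The Mt-nd2 call was lost without lean replicate 1 (log2 change 0.24, adjusted p = 0.0541) or obese replicate 1 (0.28, adjusted p = 0.0516). The Mt-nd6 call was lost without lean replicate 1 (log2 change 0.20, adjusted p = 0.0683), lean replicate 2 (0.31, 0.0514), obese replicate 1 (0.29, 0.0663), obese replicate 2 (0.24, 0.0755) or obese replicate 4 (0.29, 0.0669). Mt-nd5 and Mt-nd1 did not pass, at log2 changes of 0.25 (adjusted p = 0.0668) and 0.21 (adjusted p = 0.0802). Without obese replicate 3, Mt-nd1 passed, at 0.27 (adjusted p = 0.0342). On the rescaled values all 7 were called higher, by 0.47 for Mt-nd1 (adjusted p = 0.0425) to 0.84 for Mt-nd4 (adjusted p = 0.00121), where 0.589% of all kept genes were called higher and 0.751% lower. Scaled to the mitochondrial total instead, Mt-nd4, Mt-nd3 and Mt-nd4l were called higher, at log2 changes of 0.46, 0.38 and 0.21, against 0.285% of kept genes. Under quantile normalization, which gives each rank the same value in every library, no complex I mRNA was called in any of the 3 comparisons, and Mt-nd4 stood at 0.17 here (adjusted p = 0.273).

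**Figure D2:**
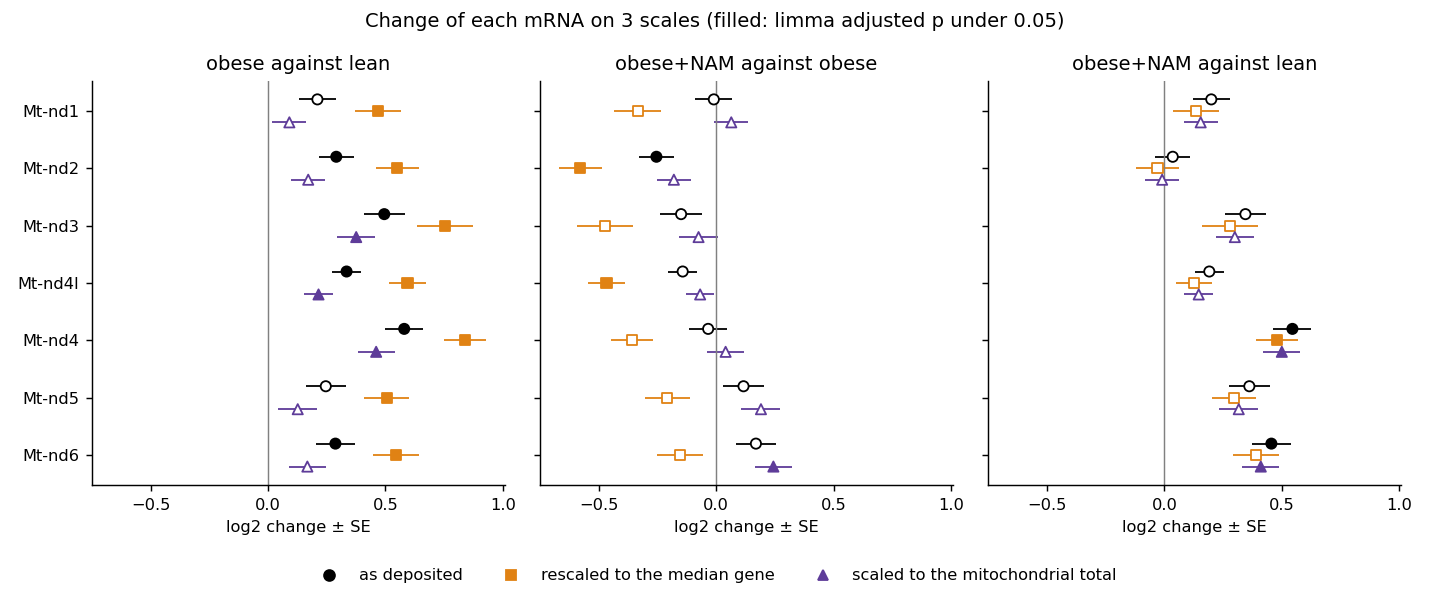
Log2 change with its SE from limma for each complex I mRNA in 3 comparisons, on the deposited scale (black circles), rescaled to the median gene (orange squares) and scaled to the mitochondrial total (purple triangles); filled marks passed an adjusted p of 0.05. Mt-nd4 is filled on all 3 scales in both comparisons with lean hearts, while in obese+NAM against obese hearts the values of Mt-nd1, Mt-nd4, Mt-nd5 and Mt-nd6 change sign with the scale.

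NAM treatment went with a lower level of 1 complex I mRNA, Mt-nd2, relative to untreated obese hearts. Mt-nd2 fell by 0.25 on the log2 scale (SE 0.08, limma adjusted p = 0.0243), to 34257 ± 1639.9 TPM in obese+NAM hearts, against 40957 ± 3646 TPM in obese hearts. None of the 7 was called higher, where 28.8% of all kept genes were, and 0.466% of kept genes were called lower. Without an adjustment, the same test put 2 of the 7 lower and 0 higher at a p under 0.05. The share of all kept genes at that unadjusted threshold was not counted. Libraries did not overlap for Mt-nd2 and Mt-nd4l, both lower with NAM, against 0.333% of kept genes that stood wholly below obese. The median log2 change was -0.03 over the 7 and 0.25 over all kept genes.

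The other 6 did not pass on the deposited scale. Mt-nd3 and Mt-nd4l had log2 changes of -0.15 (adjusted p = 0.215) and -0.14 (adjusted p = 0.0907), and Mt-nd4 and Mt-nd1 of -0.03 (adjusted p = 0.776) and -0.01 (adjusted p = 0.936). Mt-nd5 and Mt-nd6 had positive values, 0.12 (adjusted p = 0.324) and 0.17 (adjusted p = 0.143), which turned to -0.21 and -0.16 on the rescaled values. On that scale Mt-nd2 fell by 0.58 (adjusted p = 0.0234) and Mt-nd4l fell by 0.47 (adjusted p = 0.0235), and the others were not called. Of all kept genes 0.2% were called higher and 0.513% lower on that scale. Scaled to the mitochondrial total, Mt-nd6 was called higher, at 0.24 (adjusted p = 0.0292), where 37.5% of kept genes were, and Mt-nd2 was no longer called, at -0.18 (adjusted p = 0.0614). The Mt-nd2 call on the deposited scale was lost without obese replicate 1 (log2 change -0.24, adjusted p = 0.0606), obese replicate 2 (-0.20, 0.0576), obese+NAM replicate 1 (-0.25, 0.0626) or obese+NAM replicate 3 (-0.23, 0.0699). Mt-nd6 was called higher without lean replicate 1, which enters only through the shared spread (log2 change 0.17, adjusted p = 0.0468).

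Relative to lean hearts, obese+NAM hearts held more Mt-nd4 and Mt-nd6 mRNA, and 5 of the 7 stood wholly above lean. Mt-nd4 rose by 0.55 on the log2 scale (SE 0.08, limma adjusted p = 0.00591) and Mt-nd6 by 0.46 (SE 0.08, adjusted p = 0.0175). The background was 0.865% of kept genes called higher and 0.969% called lower. Mt-nd1, Mt-nd3, Mt-nd4, Mt-nd5 and Mt-nd6 did not overlap with lean, against 6.94% of kept genes that stood wholly above lean. The Mt-nd4 call held with any 1 of the 12 libraries left out. It was lost when the log2 ratio between Mt-atp8 and Mt-atp6 was a covariate (0.18, adjusted p = 0.924), an alternative added after seeing the data. That fit called 0 of the 10526 kept genes in this comparison, so the loss is not particular to Mt-nd4. The Mt-nd6 call was lost without obese+NAM replicate 3 (log2 change 0.46, adjusted p = 0.0513) or obese+NAM replicate 4 (0.42, adjusted p = 0.0628), and on the rescaled values (0.39, adjusted p = 0.0592). Mt-nd5 and Mt-nd3 had log2 changes of 0.36 (adjusted p = 0.0535) and 0.35 (adjusted p = 0.0741). Mt-nd1 and Mt-nd4l had 0.20 (adjusted p = 0.224) and 0.19 (adjusted p = 0.139). Mt-nd2 was at 0.04 (adjusted p = 0.851), and at -0.03 on the rescaled values. On the rescaled values Mt-nd4 alone of the 7 was called higher (0.48, adjusted p = 0.0168), against 0.77% of kept genes called higher and 1.59% lower. Scaled to the mitochondrial total, Mt-nd4 and Mt-nd6 were called higher, against 0.456% of kept genes.

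Within the mitochondrial transcripts, the complex I mRNAs took 28.9 ± 1.39% of the summed TPM of the 13 mRNAs in obese+NAM hearts, 29.3 ± 1.53% in obese hearts and 24.7 ± 1.22% in lean hearts. Mt-atp8, the mRNA of a small ATP synthase subunit, is the largest single value in every library and shares bases with Mt-atp6, and its ratio to Mt-atp6 was 2.01 ± 0.198 in obese+NAM hearts, 2.71 ± 0.354 in obese hearts and 3.11 ± 0.196 in lean hearts. Without Mt-atp8, the complex I share of the remaining 12 mRNAs was 38.6 ± 1.42% in obese+NAM hearts, 41.3 ± 0.772% in obese hearts and 38.3 ± 1.10% in lean hearts. The step between obese and lean hearts was thus smaller without that 1 mRNA. The part of the Mt-atp8 values in the shares was not tested further.

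Single shares were compared with exact 2-sided permutation tests of 4 against 4 libraries, 27 tests in all over 9 values and 3 comparisons. The smallest p this design allows is 0.0286, which became 0.0643 after Benjamini-Hochberg adjustment, so 0 of 27 passed 0.05. Without the adjustment 12 of the 27 reached that smallest p, 4 in obese against lean, 2 in obese+NAM against obese and 6 in obese+NAM against lean. With Mt-atp8 left out of the total, these counts were 2, 4 and 4. Mt-nd4 took 4.92, 4.43, 4.20 and 4.76% of the 13 mRNAs in obese+NAM hearts, 4.44, 5.09, 4.01 and 4.29% in obese hearts and 3.01, 3.23, 3.48 and 3.20% in lean hearts. Lean hearts lay below both other groups (exact permutation p = 0.0286, adjusted p = 0.0643, in each comparison). The Mt-nd4 share showed the same separation among the 12 mRNAs without Mt-atp8, at means of 6.12% in obese+NAM, 6.27% in obese and 5.0% in lean hearts. The Mt-nd3 share of the 13 averaged 4.53% in obese+NAM hearts, 4.77% in obese hearts and 3.67% in lean hearts, with no overlap between lean and the others (exact p = 0.0286, adjusted p = 0.0643). Mt-nd3 did overlap among the 12, at 6.06%, 6.73% and 5.69% in obese+NAM, obese and lean hearts.

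Among the 12 mRNAs without Mt-atp8, Mt-nd2 took 6.30, 6.57, 6.17 and 6.65% in obese+NAM hearts, 7.77, 8.18, 7.42 and 7.33% in obese hearts and 7.19, 7.36, 7.41 and 7.99% in lean hearts. All 4 obese+NAM libraries lay below the other 8 (exact permutation p = 0.0286 against either group, adjusted p = 0.0771 over 27 tests). Among all 13 the Mt-nd2 share overlapped in each comparison, at 4.80% in obese+NAM, 5.45% in obese and 4.84% in lean hearts. Its ratio to Mt-nd1, the gene upstream of it on the same strand, was 1.28, 1.28, 1.30 and 1.42 in obese+NAM hearts, 1.52, 1.59, 1.63 and 1.52 in obese hearts and 1.50, 1.44, 1.45 and 1.53 in lean hearts. The 4 obese+NAM ratios lay below all 8 others, and obese and lean ratios overlapped.

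**Figure D3:**
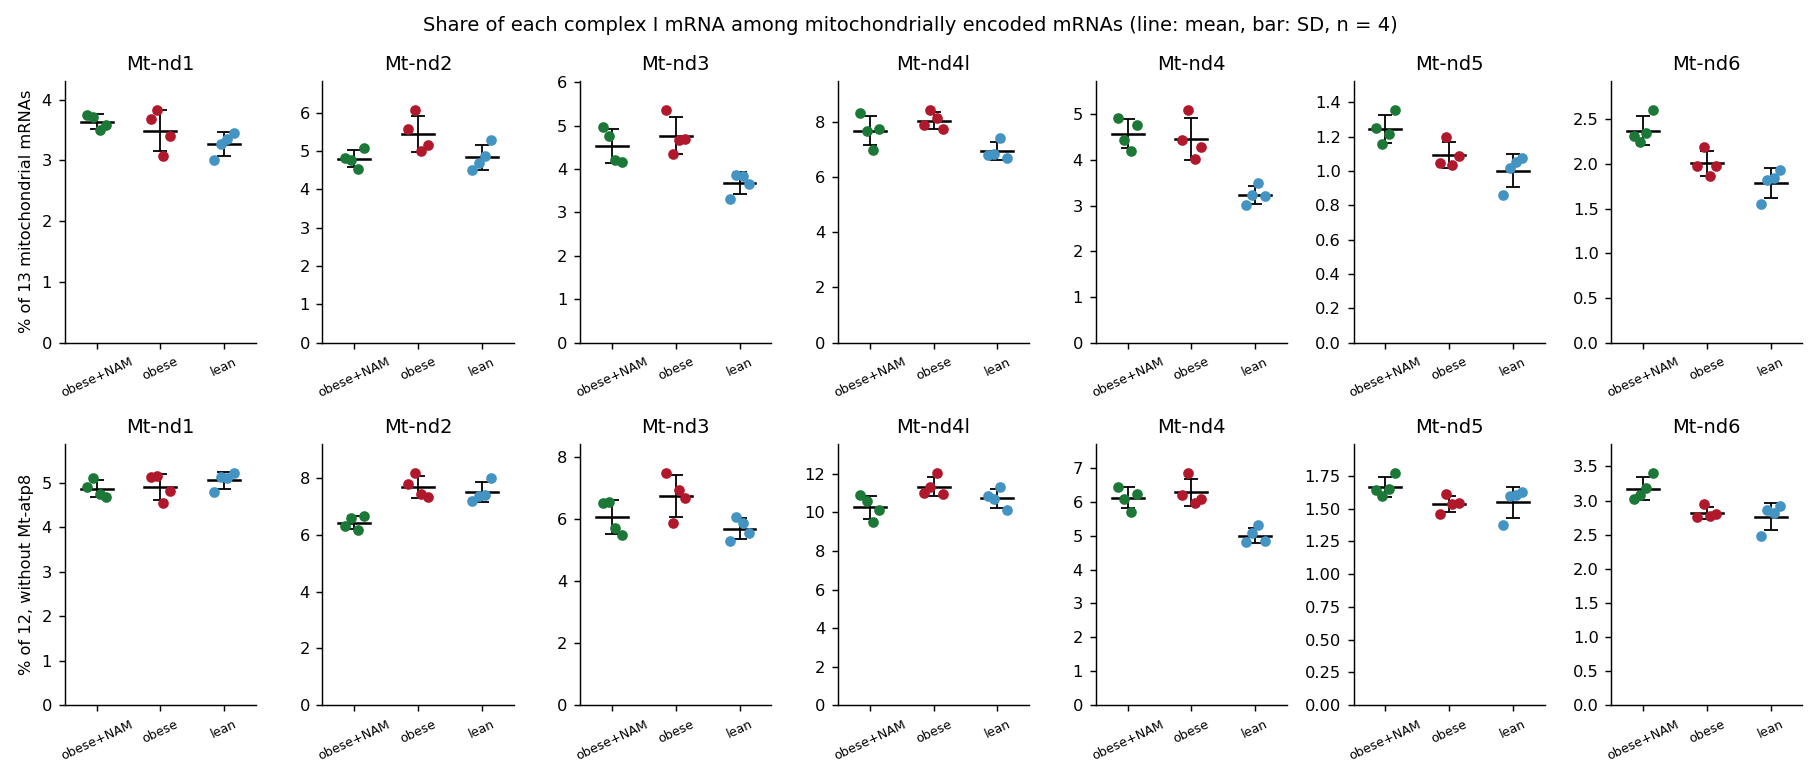
Share in percent of each complex I mRNA in the summed TPM of the 13 mitochondrially encoded mRNAs (upper row) and of the 12 without Mt-atp8 (lower row) in obese+NAM, obese and lean hearts, with a point per library, the mean as a line and the SD as a bar (n = 4 each). Mt-nd4 is lowest in lean hearts in both rows, and Mt-nd2 is lowest in obese+NAM hearts in the lower row.

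The light-strand mRNA Mt-nd6 was set against the 6 heavy-strand complex I mRNAs. Its ratio to their sum was 0.0824, 0.0845, 0.0950 and 0.0975 in obese+NAM hearts, 0.0707, 0.0757, 0.0722 and 0.0750 in obese hearts and 0.0721, 0.0797, 0.0769 and 0.0826 in lean hearts. Obese+NAM hearts lay above obese hearts without overlap (exact permutation p = 0.0286, adjusted p = 0.0643) and overlapped with lean hearts by 1 library (exact p = 0.0571). Obese and lean ratios overlapped (exact p = 0.143). The kit is a directional one, but no source used here says whether the counting used strand. Reads of Mt-nd6 and of the heavy-strand RNA opposite to it can therefore not be told apart in these values.

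Mt-nd6 and its neighbour on the other strand, Mt-nd5, moved together from library to library. Over the 12 libraries Pearson's r of their log2 values was 0.987, and it was 0.979 for deviations from the group means. Among the 21 pairs of complex I mRNAs r had a median of 0.752, with a lowest value of 0.436. For deviations from the group means the median was 0.696 and the lowest value 0.192. All values of a library share its TPM total, so these are descriptions only. The Mt-nd6 to Mt-nd5 ratio was 1.91 ± 0.0416 in obese+NAM hearts, 1.84 ± 0.0356 in obese hearts and 1.79 ± 0.0231 in lean hearts (SD, n = 4 each).

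**Figure D4:**
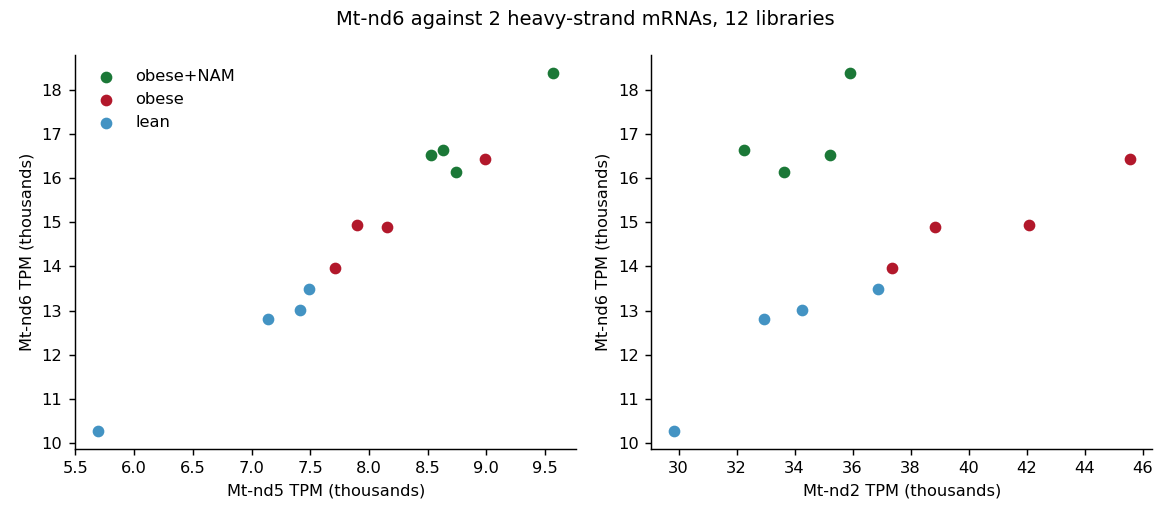
Mt-nd6 against Mt-nd5 (left) and against Mt-nd2 (right), all in TPM on axes labelled in units of 1000 TPM that do not start at 0, with 1 point per library for obese+NAM, obese and lean hearts. Mt-nd6 and Mt-nd5 lie close to a line (r = 0.987 of log2 values over 12 libraries), whereas beside Mt-nd2 the 4 obese+NAM libraries lie above the band of the other 8.

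Mt-nd4l and Mt-nd4 share 1 mRNA, and on the TPM scale Mt-nd4l was the higher of the pair in every library. The Mt-nd4l to Mt-nd4 ratio was 1.69, 1.74, 1.67 and 1.63 in obese+NAM hearts, 1.78, 1.66, 2.03 and 1.80 in obese hearts and 2.26, 2.11, 2.13 and 2.09 in lean hearts. Lean ratios lay above both other groups (exact permutation p = 0.0286, adjusted p = 0.0643 each), and obese+NAM and obese ratios overlapped (exact p = 0.114). No source used here says how reads over the shared bases and over so short a gene were assigned, and their part in these ratios was not tested.

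**Figure D5:**
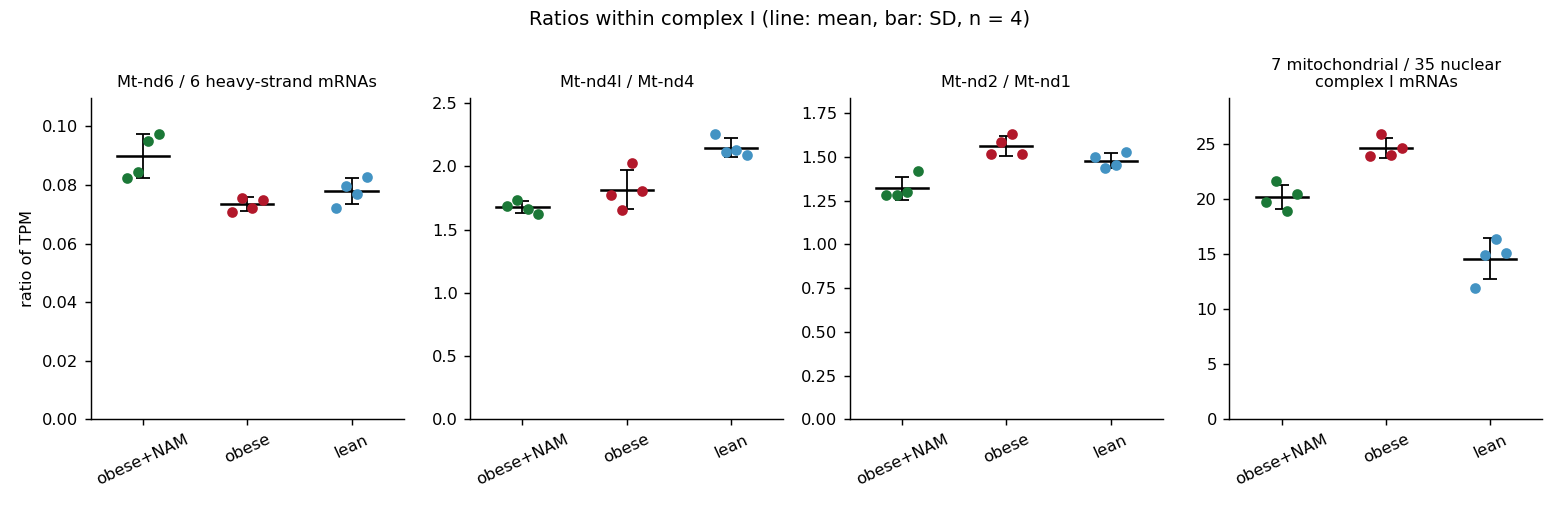
Ratios of TPM by library in obese+NAM, obese and lean hearts, each axis starting at 0: Mt-nd6 over the 6 heavy-strand members, Mt-nd4l over Mt-nd4, Mt-nd2 over Mt-nd1, and the 7 mitochondrial over 35 nuclear complex I mRNAs. Points are libraries, lines are means and bars are SD (n = 4 each); the mitochondrial to nuclear ratio separates all 3 groups.

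The nuclear-encoded subunits of the complex were set beside the mitochondrially encoded ones, of which 5 of 7 rose in obese against lean hearts. Of 35 nuclear complex I subunit mRNAs analysed here, 32 fell and 0 rose in obese against lean hearts by limma's adjusted p, where 16.5% of all kept genes fell. At an unadjusted p under 0.05, 33 were lower and 0 higher. For this and the other unadjusted counts of these 35, no share of all kept genes was counted. Among them were Ndufv3, a subunit of the NADH-binding module, at -0.60 (SE 0.08, adjusted p = 0.00112), and Ndufs8, an iron-sulfur subunit of the peripheral arm, at -0.68 (SE 0.10, adjusted p = 0.00207). Their median log2 change was -0.44, beside -0.20 for all kept genes. None of the 35 was called on the rescaled values, where 15 were lower at an unadjusted p under 0.05. In obese+NAM against obese hearts 14 rose and 0 fell, where 28.8% of all kept genes rose, among them Ndufs1, the largest iron-sulfur subunit, by 0.61 (SE 0.09, adjusted p = 0.00292). The median of the 35 was 0.19 there, beside 0.25 for all kept genes. None was called on the rescaled values, where 1 was higher and 12 lower without adjustment. In obese+NAM against lean hearts 6 fell and 0 rose, with Ndufb7, an accessory subunit of the membrane arm, at -0.84 (SE 0.12, adjusted p = 0.00588), and 14 fell on the rescaled values, against 0.969% of kept genes on the deposited and 1.59% on the rescaled scale.

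The summed TPM of the 7 mitochondrial complex I mRNAs over that of the 35 nuclear ones does not depend on the scaling of a library. This ratio was 19.8, 21.6, 19.0 and 20.4 in obese+NAM hearts, 23.9, 26.0, 24.1 and 24.7 in obese hearts and 12.0, 14.9, 16.4 and 15.1 in lean hearts. No library of 1 group overlapped with another group, the lowest being lean replicate 1. The obese+NAM mean was 20.2 ± 1.12, the obese mean 24.7 ± 0.942 and the lean mean 14.6 ± 1.89 (SD, n = 4 each). No p is given, since the sum was chosen with the directions of its parts known.

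Lists of factors that assemble the complex or make and process its mitochondrial mRNAs were read against the 16.5% of kept genes that fell in obese against lean hearts and the 28.8% that rose in obese+NAM against obese hearts. Of 21 complex I assembly factors, 7 fell in obese against lean hearts and 13 rose in obese+NAM against obese hearts. Foxred1, an assembly factor of the complex, fell by 0.46 (adjusted p = 0.00443) in obese against lean hearts and rose by 0.42 (adjusted p = 0.00495) with NAM against obese. Of 15 genes of mitochondrial DNA transcription and maintenance, 3 fell in obese against lean hearts, near the share of all genes, and 7 rose in obese+NAM against obese hearts. Tfb2m, a transcription initiation factor of the mitochondrion, averaged 24.6 TPM in obese+NAM hearts, 18.3 TPM in obese hearts and 25.3 TPM in lean hearts. Of 22 genes of mitochondrial RNA processing and stability, 7 fell in obese against lean hearts and 11 rose in obese+NAM against obese hearts. Lrpprc, which stabilises mitochondrial mRNAs, averaged 33.9 TPM in obese+NAM hearts, 22.3 TPM in obese hearts and 33.1 TPM in lean hearts. On the rescaled values none of these 3 lists had a called gene in those 2 comparisons by limma's adjusted p. Unadjusted p under 0.05 on that scale were reached, for obese against lean, by 4 assembly, 1 transcription and 2 processing genes, all lower. For this and the unadjusted counts that follow, no share of all kept genes was counted. For obese+NAM against obese they were reached by 0 higher and 1 lower, 1 higher and 2 lower, and 2 higher and 0 lower genes of the 3 lists in that order. In obese+NAM against lean hearts no gene of the 3 lists was called on the deposited scale, where 2 higher and 1 lower, 1 higher and 2 lower, and 0 higher and 1 lower reached an unadjusted p under 0.05. On the rescaled values 1 transcription gene was called lower there, against 1.59% of kept genes. At an unadjusted p under 0.05, 4 assembly, 2 transcription and 1 processing genes were lower on that scale and 0 higher.

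The complex I mRNAs were set beside the 6 other mitochondrially encoded mRNAs. In obese against lean hearts 3 of the 6 were called higher, where 0.352% of kept genes were. Mt-cyb of complex III rose by 0.37 (adjusted p = 0.003), and Mt-co1 and Mt-co3 of complex IV by 0.32 (adjusted p = 0.00343) and 0.29 (adjusted p = 0.00241). These values lie below those of Mt-nd4 and Mt-nd3 and near that of Mt-nd4l. On the rescaled values 4 of the 6 were called higher, beside all 7 complex I mRNAs, where 0.589% of kept genes were. Mt-cyb, Mt-co1 and Mt-co3 stood at 0.63, 0.58 and 0.55 there, and Mt-atp6 at 0.30 (adjusted p = 0.0457). In obese+NAM against obese hearts Mt-co2 and Mt-atp6 rose, by 0.28 (adjusted p = 0.0101) and 0.15 (adjusted p = 0.0439), where 28.8% of kept genes rose. Both turned negative on the rescaled values, to -0.05 and -0.18. Mt-atp8 fell by 0.27 on the deposited scale (adjusted p = 0.0178), as Mt-nd2 did, where 0.466% of kept genes fell. On the rescaled values of that comparison 4 of the 6 fell, beside 2 of the 7 complex I mRNAs and 0.513% of kept genes. Mt-co1 fell by 0.33, Mt-co3 by 0.31, Mt-cyb by 0.41 and Mt-atp8 by 0.60. Mt-co1, Mt-co3 and Mt-cyb rose in obese+NAM against lean hearts, by 0.31, 0.31 and 0.28, and Mt-atp8 fell by 0.45, beside the rises of Mt-nd4 and Mt-nd6. Of all kept genes 0.865% were called higher and 0.969% lower in that comparison. On the rescaled values Mt-co1 (0.25) and Mt-atp8 (-0.51) kept their calls there, against 0.77% of kept genes called higher and 1.59% lower.

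For each complex I mRNA, the 3 genes outside the 7 with the most similar log2 values over the 12 libraries were listed, with no test. Genes with placeholder symbols, such as LOC or RGD numbers, were passed over, so the ranks hold among the other kept genes. Mt-nd4 was most like Mt-cyb (r = 0.958), Mt-co3 (r = 0.957) and Gja5 (r = 0.952), a connexin of conduction cells, atrial muscle and arterial endothelium. Gja5 was also among the 3 nearest for Mt-nd4l (r = 0.924), Mt-nd3 (r = 0.895) and Mt-nd1 (r = 0.880). Likewise Mt-cyb was among the 3 nearest for Mt-nd3 (r = 0.887), Mt-nd4l (r = 0.870) and Mt-nd2 (r = 0.738). Mt-nd1 was nearest to Hhex, a homeobox transcription factor (r = 0.911), and Mt-nd2 to Flvcr1, a transporter (r = 0.795), the lowest nearest value of the 7. Mt-nd5 was nearest to Mmp14, a membrane metalloproteinase (r = 0.861), and Mt-nd6 to Zfp322a, a zinc finger gene (r = 0.888), with Mt-co3 next (r = 0.879).

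Markers of heart muscle were present in every library and were lowest in obese hearts, where the complex I mRNAs were highest in sum. The 11 cardiomyocyte markers summed to 19342 to 22192 TPM in obese+NAM hearts, 15448 to 17633 TPM in obese hearts and 22347 to 26062 TPM in lean hearts. All 11 fell in obese against lean hearts, where 16.5% of kept genes did, and 10 rose in obese+NAM against obese hearts, where 28.8% did. On the rescaled values 3 fell and 1 rose in those comparisons, against 0.751% and 0.2% of kept genes. In obese+NAM against lean hearts 2 of the 11 were called lower and 0 higher, against 0.969% of kept genes called lower. There 3 were lower on the rescaled values, against 1.59%. The median log2 changes of the 11 against lean were -0.14 and -0.20 on the 2 scales. In bulk tissue, fewer cells of a type and less RNA per cell cannot be told apart. The 7 erythroid markers, of a cell that lacks mitochondria when mature, summed to 493 to 2324 TPM in obese+NAM hearts, 1679 to 4055 TPM in obese hearts and 729 to 1607 TPM in lean hearts. None of the 7 was called by limma in any comparison. At an unadjusted p under 0.05, 2 were higher and 1 lower on the deposited scale in obese against lean hearts. In obese+NAM against obese hearts 0 were higher and 4 lower, and in obese+NAM against lean hearts 0 either way. On the rescaled values these counts were 6 higher and 0 lower, 0 higher and 5 lower, and 0 either way. No share of all kept genes was counted at that threshold. The erythroid median log2 changes were 1.04, -1.17 and -0.12 on the deposited scale, and 1.29, -1.49 and -0.19 rescaled. The 10 atrial markers summed to 185 to 1133 TPM in obese+NAM hearts, 127 to 597 TPM in obese hearts and 106 to 177 TPM in lean hearts. Of the 8 kept, 1 was called higher in obese+NAM against obese hearts, where 28.8% of kept genes were. It was not called on the rescaled values, and 0 were called against lean hearts. Their median log2 change was 0.57 for obese and 0.64 for obese+NAM against lean hearts, beside -0.20 and 0.05 for all kept genes. It was -0.0061 for obese+NAM against obese hearts, beside 0.25. Of the 11 fibroblast, 9 endothelial, 7 smooth muscle and pericyte and 10 macrophage markers kept, at most 2 of a list were called in any comparison. At an unadjusted p under 0.05 on the rescaled values, 10 of the 11 fibroblast markers were higher in obese against lean hearts and 9 were lower in obese+NAM against obese hearts. The share of all kept genes at that threshold was not counted. On the deposited scale the counts were 3 higher and 2 lower. The rescaled median log2 changes were 0.47 and -0.56, beside 0.0032 and -0.0078 for all kept genes and 0.55 and -0.36 for the complex I mRNAs. On the deposited scale the fibroblast medians were 0.21 and -0.25, and the complex I medians 0.29 and -0.03. The 11 summed to 555 to 688 TPM in obese+NAM hearts, 553 to 974 TPM in obese hearts and 629 to 679 TPM in lean hearts, and the 3 ranges overlapped. No marker of these lists was at 0 in every library, and their part in the complex I values was not tested.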

How the data were processed

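Bulk RNA sequencing of 12 cardiac muscle samples was used, 4 in each of 3 groups. Per the labels' protocols, RNA came from a TRIzol and RNeasy extraction and went into a directional NEBNext Ultra II library. The authors deposited TPM per gene, with Rnor_6.0 and limma named in the submitters' processing notes; no source used here names the aligner or the quantifier. In the obese+NAM columns the deposited TPM hold a mark in place of a number for 498 of 17602 genes, none of them mitochondrial, which were left out, and 17104 remained. These columns are taken as TPM because the remaining values sum to nearly the same total as the other columns.

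The 10526 genes that reached 1 TPM in 4 or more libraries were kept. A limma model (limma 3.58.1, statmod 1.5.0, R 4.3.3) with 3 group means was fitted to log2(TPM + 1), leaving 9 residual degrees of freedom, and moderated by eBayes (trend and robust), with 2-sided p adjusted by Benjamini-Hochberg over all kept genes of a comparison and a threshold of 0.05. Adjusted p-values of genes are limma's. Fold changes are on the log2(TPM + 1) scale. Shares and ratios were compared with exact permutation tests in Python 3.11.15 (scipy 1.17.1). The fit was tested on simulated data. Named genes are all 7 members, the other mitochondrial mRNAs, the 3 most similar genes of each member (placeholder symbols passed over) and up to 3 called genes with the smallest p of each list. Not all of them are printed. The members and the gene lists were chosen with earlier results of these data known, and so were the alternatives. Of a list of 10 RNA-quality transcripts, 0 were found by name among the 17104 genes with a number in every library, so it could not be analysed.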

Additional observations from a re-analysis of the deposited data

Results flagged for a closer look

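Of 78 sets of 4 libraries checked, 1 held a library far from the other 3, where chance gives about 1 in 20. Mt-nd5 took 1.37% of the 12 mitochondrial mRNAs without Mt-atp8 in lean replicate 1, against 1.59% to 1.62% in the other 3 lean hearts. The gap to its nearest neighbour was 0.884 of the whole range, above Dixon's critical value for 4 samples at the 95% level. The same library had the lowest Mt-nd5 and Mt-nd6 TPM of the 12 and the lowest share of mitochondrial mRNAs in the TPM total. Without it, 3 of the 7 complex I mRNAs were called higher in obese against lean hearts, against 5 with it.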

How the results depend on the processing

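The count of complex I mRNAs called was 5 in obese against lean, 1 in obese+NAM against obese and 2 in obese+NAM against lean hearts. Leaving out 1 library at a time gave 3 to 6, 0 to 2 and 1 to 2. The 2 of obese+NAM against obese were Mt-nd2 lower and Mt-nd6 higher, without lean replicate 1. In the same order of comparisons, quantile normalization gave 0, 0 and 0, which fixes most ranks at the top of a library by construction, and eBayes without trend and robust gave 3, 0 and 1. Scaling to the mitochondrial total gave 3 in the first, TPM without Mt-atp8 gave 2 in the second, and a mean of at least 5 TPM gave 4 in the third. The mitochondrial total kept a count of 1 in the second, but that call was Mt-nd6 higher in place of Mt-nd2 lower. Median-of-ratios rescaling gave 2 in the second and 1 in the third. A covariate added after seeing the data, the log2 ratio between Mt-atp8 and Mt-atp6, gave 3, 0 and 0. Over all kept genes that fit called 1991, 0 and 0, where the main fit called 1770, 3077 and 193. The cause of these moves was not tested. Pseudocounts, no filter, array weights and a fit to 8 samples kept every count within 1.5 times. Of the exact tests, 0 passed in each comparison. With the shares taken of the whole TPM total, 7, 3 and 6 passed, 13 of them shares and 3 of them ratios. The unadjusted p of a ratio does not depend on that total. The adjusted p of the ratios fell only because more of the 27 tests reached the smallest possible p. With 3 against 4 libraries an exact p cannot go below 0.0571.

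Signs changed in these cases. In obese against lean hearts Mt-nd1 was at -0.10 (log2) under quantile normalization, and its share and that of Mt-nd5 among the 12 differed by -0.15 and -0.012 percentage points. In obese+NAM against obese hearts, scaling to the mitochondrial total gave 0.064 for Mt-nd1 and 0.040 for Mt-nd4. Mt-nd5 and Mt-nd6 gave -0.21 and -0.16 under rescaling and -0.14 and -0.073 under the covariate. Leaving out 1 library gave -0.074 to 0.035 for Mt-nd1 and -0.086 to 0.031 for Mt-nd4. The Mt-nd1 and Mt-nd4 shares differed by -0.043 and -0.16 points among the 12 and by -0.026 and -0.086 points of the TPM total, and the Mt-nd4 share of the 13 by -0.0325 to 0.327 with 1 library out. In obese+NAM against lean hearts Mt-nd1 was at -0.10 under quantile normalization and -0.054 under the covariate, and Mt-nd5 at -0.026 under the covariate. Mt-nd2 was at -0.029 under rescaling, -0.16 under quantile normalization, -0.082 without Mt-atp8, -0.0093 scaled to the mitochondrial total, -0.28 under the covariate and -0.018 to 0.084 with 1 library out. The Mt-nd1 and Mt-nd4l shares among the 12 differed by -0.19 and -0.47 points. The Mt-nd2 share differed by 0.077 points of the TPM total, by 0.012 in medians and by -0.146 to 0.113 with 1 library out.

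Replicate numbers are shared between the groups, but the labels do not say what they mark. Correlations of deviations of same-numbered libraries ran from -0.049 to 0.072, 0 of 12 pairs exceeded 0.1, and 4 of 12 libraries correlated best with their own number. With the replicate number as a block the counts were 5, 1 and 2.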
